A study of Mus musculus with 6 samples.

Results

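The 10 genes described here belong to the interleukin 1 (IL-1) family and the inflammasome, and were measured by RNA-seq of mouse bone marrow. They are Il1a, Il1b, Il1rn, Il1r1, Il1r2, Il1rap, Il18, Il18bp, Nlrp3 and Casp1, and were chosen by name, as the rows of the count table whose Ensembl identifiers carry these symbols, and made up 10 of 45706 genes in the table and 10 of the 15141 genes that passed the filter on low counts. The series concerns tumour, myeloid and T cells in a mouse model of clear cell renal cell carcinoma (ccRCC), a kidney cancer, that resists checkpoint therapy. The 2 control libraries (control replicates 1 and 2) were labelled as bone marrow in control medium. The 4 conditioned libraries were labelled as bone marrow in medium taken from cultured ccRCC cells, of line VpR83, VpR99, VpR126 or VpR2020. Each line gave a single library, so the spread between lines is the spread within conditioned medium, and lines carry no test among themselves. The columns of VpR83, VpR99 and VpR126 carry the added tags Ctrl, T1 and LT2, which the labels do not explain, and VpR2020 carries none. The libraries may therefore differ by more than the line, and each value given for a line is that of its 1 library. Freshly isolated marrow is the comparator in the design text, and the columns of the controls name no medium, so that medium and time in culture cannot be told apart. The sources used here give no strain, age, number of animals or culture time, and nothing says that libraries came from separate animals or cultures. P-values therefore measure the spread between these libraries, which may be technical.

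IL-1α (Il1a) and IL-1β (Il1b) are inflammatory cytokines that signal through the receptor IL1R1 (Il1r1) and its accessory protein (Il1rap). The pathway is held in check by the receptor antagonist (Il1rn), which occupies IL1R1 without signalling, and by the decoy receptor IL1R2 (Il1r2). IL-1β and the related cytokine IL-18 (Il18) are made as inactive precursors and are cut by caspase-1 (Casp1), which is switched on in inflammasomes built around sensors such as NLRP3 (Nlrp3). IL-18 is neutralised by its binding protein (Il18bp). In marrow, monocytes, macrophages and neutrophils are major sources of these cytokines.

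VpR99 was sequenced to 129120559 counts and the other 5 libraries to between 18629708 and 28055913. The marrow label was met in the controls, where erythroid (summed 1979 to 4440 CPM, counts scaled to a common library size with TMM factors), B cell (1016 to 1178 CPM) and late neutrophil markers (50951 to 56604 CPM) were high. In the conditioned libraries the erythroid sum was 0.251 to 4.94 CPM, with Slc4a1 and Car1 at 0 counts, and 10 of 12 macrophage markers rose. All 7 erythroid, all 7 mast cell and basophil and all 9 T and NK cell markers fell. Of 8 epithelial and renal tubule markers 4 were tested, of which 2 fell and none rose. Krt8, Krt19 and Pax2 had 0 counts in every conditioned library, but no more than 5 counts in either control. Cdh1 was not called and had 17.3 CPM in VpR99, against 16.7 and 13.3 in the controls and 3.15 to 7.21 in the other media. In bulk RNA, fewer cells of a type and less RNA per cell cannot be told apart.

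Of the 10 genes, 4 rose in conditioned medium (Il1a, Il18, Nlrp3 and Casp1), 2 fell (Il1b and Il1r1) and 4 were not called (Il1rn, Il1r2, Il1rap and Il18bp) by edgeR's quasi-likelihood test at a Benjamini-Hochberg adjusted p below 0.05. Of all genes tested, 22.5% were called higher and 19.7% lower, 42.2% in all. The median log2 fold change was 0.76 over the 10 genes and -0.01 over all genes tested. In the 6 called genes the 4 conditioned libraries all lay on one side of both controls, and in the 4 others the groups overlapped. Groups did not overlap in 65.3% of all genes tested, 32.0% with conditioned medium higher and 33.3% with it lower. These calls rested on having both controls. Without control replicate 1, edgeR called 0 of the 6 (adjusted p from 0.068 to 0.21), with 3 of the 10 genes higher and 1 lower at an unadjusted p below 0.05. Without control replicate 2, Il1b was still called and the other 5 were not (adjusted p from 0.021 to 0.21 over the 6). In these fits the lone control is assumed to vary like the conditioned libraries. DESeq2, run on all 6 libraries, called the same numbers, 4 higher and 2 lower.

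**Figure D1:**
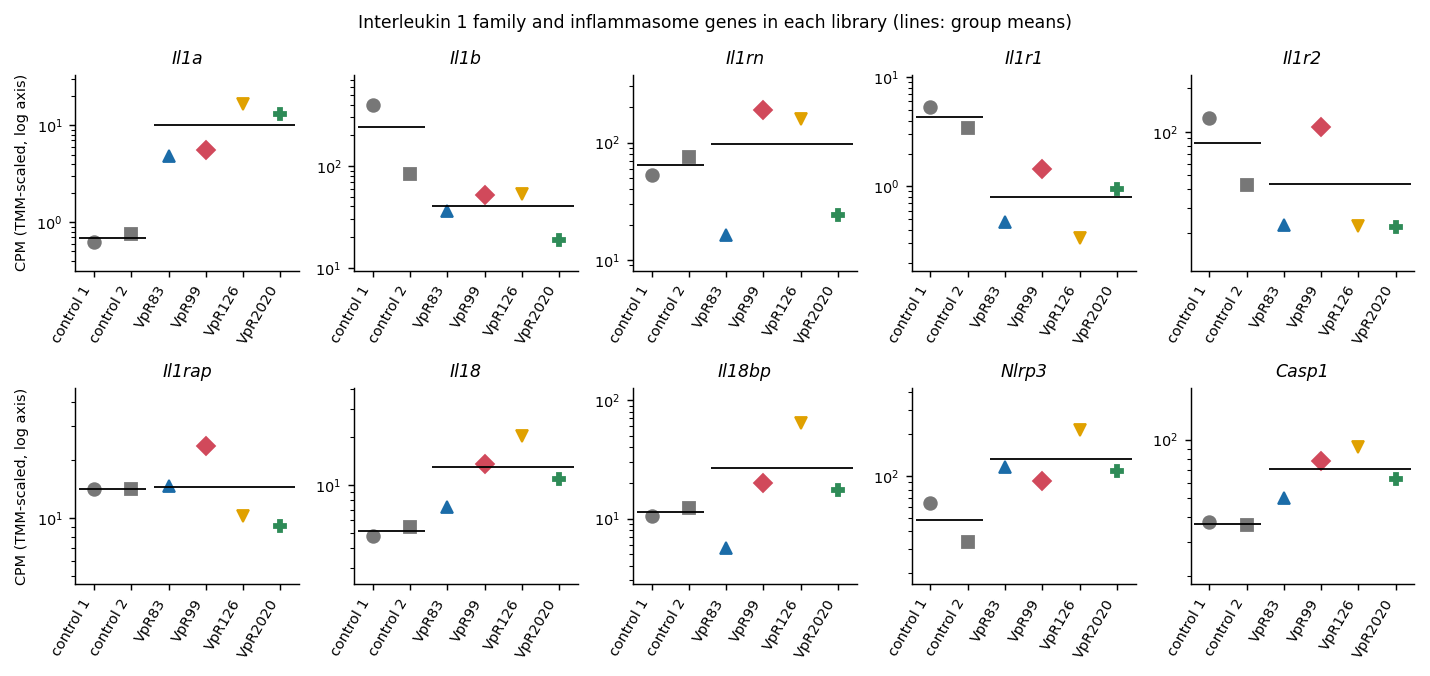
CPM (TMM-scaled, log axis) of each of the 10 genes in the 2 control libraries (grey circle and square) and the 4 conditioned libraries (coloured symbols), with group means as lines. Il1a lay at 0.633 and 0.752 CPM in the controls and at 4.87 to 16.7 CPM in conditioned medium, while Il1b fell from 394 and 83.6 CPM to 18.8 to 53.3 CPM.

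The 2 agonists moved in opposite directions. Il1a (chr2:129299610-129309972, minus strand, GRCm38) stood at 0.633 CPM in control replicate 1 and 0.752 in control replicate 2, against 4.87 in VpR83, 5.56 in VpR99, 16.7 in VpR126 and 13 in VpR2020. All 4 conditioned libraries were above both controls, and VpR126 and VpR2020 were the highest. The rise was 3.85 ± 0.70 on the log2 scale (edgeR adjusted p = 0.0071), and the log2 change stayed between 3.50 and 4.08 when any single library was left out. The control values rest on 19 and 16 counts, with exact 95% Poisson intervals of 0.381 to 0.989 and 0.430 to 1.22 CPM, which cover counting error only.

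Il1b (chr2:129364570-129371139, minus strand) had 394 CPM in control replicate 1 and 83.6 in control replicate 2, and 36.1 (VpR83), 51.8 (VpR99), 53.3 (VpR126) and 18.8 (VpR2020) in conditioned medium. All conditioned libraries were below both controls, but the controls themselves stood 4.72-fold apart. Of all genes tested, 4.14% were over 2-fold higher in control replicate 1 than in replicate 2 and 2.15% over 2-fold lower, and of the 10 genes Il1b and Il1r2 were higher by more than this. The log2 change of Il1b was -2.58 ± 0.63 (edgeR adjusted p = 0.019). It was -1.06 without control replicate 1, where the call was lost (adjusted p = 0.21, range over alternatives 0.00023 to 0.21), and -3.28 without control replicate 2. The call was also lost with no filter on low counts (adjusted p = 0.077).

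The sequences before the starts of the 3 ligand genes of the IL-1 receptor are shown because these genes, all on chromosome 2, had different patterns: Il1a rose, Il1b fell and Il1rn differed between the conditioned libraries. Each is the 250 bases before the RefSeq start (GRCm38.p6), 5′ to 3′ on the gene's strand, with matches to 4 motifs in capitals, searched on both strands. They are the NF-kB motif (GGGA, any 4 bases, CC), the AP-1 motif (TGANTCA, its own reverse complement), the PU.1 motif (GAGGAAG) and the TATA box (TATAAA). No match overlapped another. The Il1rn sequence is the most upstream of its 3 RefSeq starts. The windows before its more downstream starts held no match to any of the 4 motifs. Which start was in use was not tested.
Il1a, chr2:129309973-129310222, minus strand: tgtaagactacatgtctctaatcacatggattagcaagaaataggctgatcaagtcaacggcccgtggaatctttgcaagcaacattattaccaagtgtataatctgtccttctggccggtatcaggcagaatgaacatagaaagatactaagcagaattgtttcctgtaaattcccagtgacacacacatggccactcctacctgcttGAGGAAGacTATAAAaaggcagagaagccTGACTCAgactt
Il1b, chr2:129371140-129371389, minus strand: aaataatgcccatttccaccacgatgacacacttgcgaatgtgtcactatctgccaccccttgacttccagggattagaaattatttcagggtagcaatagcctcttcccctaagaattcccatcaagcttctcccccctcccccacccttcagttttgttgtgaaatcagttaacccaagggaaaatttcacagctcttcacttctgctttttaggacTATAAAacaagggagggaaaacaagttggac
Il1rn, chr2:24336610-24336859, plus strand: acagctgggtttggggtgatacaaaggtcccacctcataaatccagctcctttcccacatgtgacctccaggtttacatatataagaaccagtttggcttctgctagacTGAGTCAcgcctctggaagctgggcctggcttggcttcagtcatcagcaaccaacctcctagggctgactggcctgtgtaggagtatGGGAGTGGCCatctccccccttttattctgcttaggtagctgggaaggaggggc
Il1a and Il1b both held a TATAAA on the gene's strand, beginning 32 and 31 bases before the start. A TATAAA on that strand 25 to 35 bases before the start was found in 1.75% of 32851 mouse promoter entries, and anywhere in the window on either strand in 12.4%. The Il1a window also held the PU.1 motif, 41 bases before the start, and the AP-1 motif, 12 bases before it. The Il1rn window shown held the AP-1 motif at 141 bases and the NF-kB motif at 54 bases. These letters occurred in 10.6% (PU.1), 6.75% (AP-1) and 17.6% (NF-kB) of all entries. A match describes the sequence and is not a measured binding site.

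The receptor antagonist gene Il1rn (chr2:24336853-24351494, plus strand) differed more between the conditioned libraries, 1 per line, than between the groups. Its level was 53.5 and 75.1 CPM in the controls, 190 CPM in VpR99 and 159 CPM in VpR126, but 16.3 CPM in VpR83 and 24.0 CPM in VpR2020. The controls thus lay between the 2 high and the 2 low conditioned libraries, and the highest conditioned library was 11.7-fold above the lowest. A spread over 5-fold between the conditioned libraries was seen for Il1rn and Il18bp among the 10 genes, and for 13.5% of all genes tested. The log2 change between the groups was 0.60 ± 1.02 and was not called (edgeR adjusted p = 0.66). Its sign turned by limma voom (-0.08, adjusted p = 0.96, range over alternatives 0.39 to 0.97).

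Among the receptors, the signalling chain fell and the accessory protein and decoy were not called. Il1r1 (chr1:40225080-40317257, plus strand) stood at 5.30 and 3.43 CPM in the controls, at 0.476 in VpR83, 1.45 in VpR99, 0.338 in VpR126 and 0.940 in VpR2020. All conditioned libraries were below both controls (log2 change -2.40 ± 0.59, edgeR adjusted p = 0.018). VpR83, VpR126 and VpR2020 held 13, 8 and 17 counts, so that their order cannot be read: the 95% Poisson intervals were 0.253 to 0.814, 0.146 to 0.666 and 0.548 to 1.51 CPM. IL1R1 is typically abundant in stromal and endothelial cells. Of 9 stromal and endothelial markers 5 fell and 2 rose (summed 115 to 131 CPM in the controls and 30.2 to 70.6 in conditioned medium). Their part in the fall of Il1r1 was not tested.

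Il1rap (chr16:26581704-26730117, plus strand) stood at 14.2 and 14.1 CPM in the controls, at 14.6 in VpR83, 23.7 in VpR99, 10.3 in VpR126 and 9.13 in VpR2020. VpR99, and VpR83 by little, lay above the controls and the other media below them, and the log2 change was 0.03 ± 0.40 (edgeR adjusted p = 0.95). Its sign turned without VpR99 (-0.32), with upper-quartile scaling (-0.18) and with library totals (-0.20).

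Il1r2 (chr1:40074079-40125231, plus strand), the decoy, stood at 124 and 42.7 CPM in the controls, 108 CPM in VpR99 and 22.7, 22.5 and 22.0 CPM in VpR83, VpR126 and VpR2020. VpR99 lay within the span of the controls and the other 3 lay close together below them. The log2 change was -0.93 ± 0.80 (edgeR adjusted p = 0.37). It was 0.03 without control replicate 1 (adjusted p = 0.99), and without VpR99 Il1r2 was called lower, at -1.90 (adjusted p = 0.019, range over alternatives 0.019 to 0.99). VpR99 also had the highest sums of neutrophil markers among the conditioned libraries. The late neutrophil sum was 13148 CPM in VpR99 and 2728 to 7132 in the other 3, and the precursor sum 5827 CPM against 1186 to 3495. S100a8 and S100a9 held 4372 and 5529 CPM of the late sum in VpR99. Among the conditioned libraries VpR126 was the highest for Mmp9, Retnlg, Csf3r, Ltf and Camp, and VpR99 for all other markers of the 2 lists. Across the groups, 6 of 10 markers of either list fell, none of them was at 0 in all conditioned libraries, and the part of these cells in the level of Il1r2 was not tested.

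IL-18 rose and its soluble inhibitor was not called. Il18 (chr9:50554827-50581840, plus strand) stood at 4.77 and 5.45 CPM in the controls, at 7.28 in VpR83, 13.6 in VpR99, 20.4 in VpR126 and 10.8 in VpR2020. All 4 were above both controls, VpR83 by the least (log2 change 1.35 ± 0.43, edgeR adjusted p = 0.043). Of the 6 called genes it was the closest to the threshold, and was lost in 7 of 14 alternatives (adjusted p from 0.0072 to 0.21 over all of them). Il18bp (chr7:102014885-102018690, minus strand) stood at 10.5 and 12.2 CPM in the controls, at 5.60 in VpR83, 19.8 in VpR99, 63.5 in VpR126 and 17.3 in VpR2020. VpR83 was below the controls and the other 3 were above them, VpR126 by 5.61-fold over the control mean (log2 change 1.23 ± 0.88, adjusted p = 0.29, and 0.35 without VpR126). Exons of Il18bp share 80 bases with Numa1, which lies on the opposite strand and had 187 CPM in either control, and the strand setting of the counting is unknown here. Il1a, Il1b and Il1rap likewise share exon bases with the opposite-strand genes Gm14023, Il1bos and Gm20319. Gm14023 shares 222 bases with Il1a and had 0.633 and 0.188 CPM in the controls, where Il1a itself had 0.633 and 0.752. In conditioned medium Gm14023 had 0.293 (VpR83), 0.357 (VpR99), 0.887 (VpR126) and 0.719 CPM (VpR2020). The part of this overlap in the Il1a counts was not tested.

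The inflammasome sensor and its protease also rose. Nlrp3 (chr11:59541568-59566956, plus strand) stood at 63.5 and 33.5 CPM in the controls, at 117 in VpR83, 92.5 in VpR99, 216 in VpR126 and 108 in VpR2020. All 4 conditioned libraries were above both controls and VpR126 was the highest (log2 change 1.46 ± 0.44, edgeR adjusted p = 0.038). Casp1 (chr9:5298517-5307265, plus strand) stood at 37.9 and 36.5 CPM in the controls, at 50.5 in VpR83, 77.9 in VpR99, 92.1 in VpR126 and 62.9 in VpR2020. The controls were nearly equal and all 4 conditioned libraries lay above them (0.93 ± 0.26, adjusted p = 0.028).

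Of the rises, that of Il1a alone was called under upper-quartile scaling or with library totals only. Nlrp3, Casp1 and Il18 had log2 changes of 1.26, 0.72 and 1.15 under the former (adjusted p = 0.055, 0.054 and 0.066, with ranges over alternatives of 0.0039 to 0.21, 0.0052 to 0.15 and 0.0072 to 0.21). The median over all genes was then -0.22. Macrophages express these genes, and of 12 macrophage markers 10 rose and 1 fell. Their sum was 650 to 705 CPM in the controls and 16360 (VpR83), 6522 (VpR99), 26839 (VpR126) and 26229 CPM (VpR2020) in conditioned medium. No marker of the list was at 0 in all conditioned libraries, and the part of macrophage number in the rises was not tested.

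**Figure D2:**
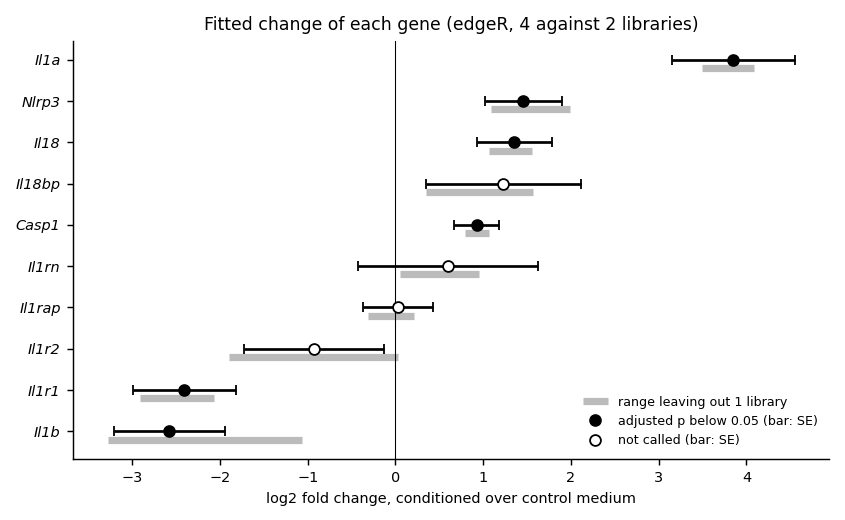
Fitted log2 fold change of conditioned over control medium for each gene (points, with SE as black bars, and filled where the adjusted p was below 0.05) and the range of that value when 1 library is left out (grey bars). The range of Il1b runs from -3.28 to -1.06 and that of Il1r2 from -1.90 to 0.03.

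Line by line, the media fell into unlike profiles for these genes. VpR126 medium had 6 of the 10 genes over 2-fold above both controls (Il1a, Il1rn, Il18, Il18bp, Nlrp3 and Casp1), where 19.7% of all genes tested were, and 1 over 2-fold below (Il1r1), where 20.3% were. VpR99 had 4 above (Il1a, Il1rn, Il18 and Casp1, 16.0% of all genes) and 1 below (Il1r1, 16.7%). VpR83 and VpR2020 each had Il1a above (17.5% and 18.7% of all genes) and Il1b, Il1rn and Il1r1 below (20.2% and 21.4%). Il1a was thus past this fold on the same side under all 4 media, as was Il1r1, and Il1rn was past it under all 4 but on opposite sides. With 1 library per line these are counts of single libraries and carry no test.

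The size of the Il1a difference was 24.2-fold over the control mean in VpR126 and 18.8-fold in VpR2020, and 7.03-fold in VpR83 and 8.03-fold in VpR99. For Il1b the level in VpR2020 was the lowest, a log2 ratio of -3.67 to the control mean and -2.16 to control replicate 2. VpR99 and VpR126 stood at -2.20 and -2.16 to the control mean, but at -0.69 and -0.65 to control replicate 2 alone. The choice of control column therefore set whether their Il1b level was over 2-fold lower.

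**Figure D3:**
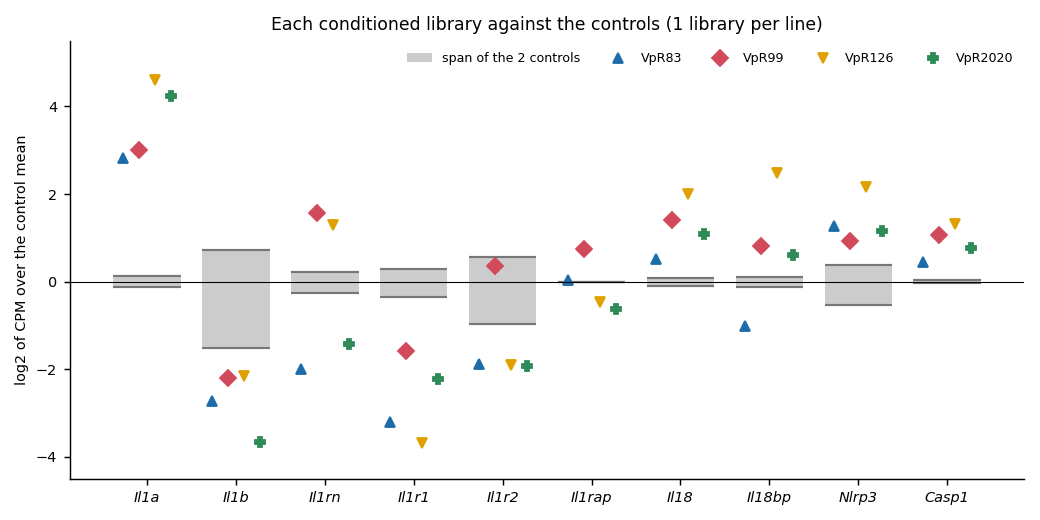
Log2 ratio of each conditioned library's CPM to the mean of the 2 controls, by gene, with the controls' own span as grey boxes. For Il1rn, VpR99 and VpR126 stand at 1.56 and 1.30 and VpR83 and VpR2020 at -1.98 and -1.42.

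Levels of different genes were compared per length, as RPKM (reads per exon length and library size, on TMM-scaled sizes). In both controls Il1b was the highest of the 10 genes, at 207 and 43.8 RPKM, and Il1a was the lowest, at 0.321 and 0.381 RPKM. In the conditioned libraries Casp1 was the highest in VpR83, VpR126 and VpR2020 (33.7, 61.5 and 42.0 RPKM) and Il1r2 in VpR99 (56.5 RPKM), while Il1r1 was the lowest in all 4 (0.0531 to 0.228 RPKM). When the longest coding transcript replaced the union of exons, a length chosen after the data were seen, Il1rn was the highest in VpR99 and VpR126 (76.6 and 64.1 RPKM). Il1b and Il1a kept their places in the controls and Casp1 its place in VpR83 and VpR2020.

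The ratio of Il1b to Il1a, not among the ratios first planned, changed the most of 5 ratios examined. It was 644 and 115 in the controls, and 7.67 (VpR83), 9.65 (VpR99), 3.30 (VpR126) and 1.49 (VpR2020) in conditioned medium. All 4 conditioned libraries were below both controls, a difference of -5.96 in mean log2 ratio. The exact permutation test used, made two-sided by doubling the smaller tail, cannot give less than p = 0.13 with 2 against 4 libraries. That was the value here (0.33 adjusted over the 5 ratios). The antagonist's ratio Il1rn to Il1b was 0.0468 and 0.310 in the controls, and 0.155 (VpR83), 1.26 (VpR99), 1.02 (VpR126) and 0.441 (VpR2020) in conditioned medium. These groups overlapped (exact permutation p = 0.27, adjusted 0.33). Il1rn to Il1a was 30.1 and 35.6 in the controls and 0.659 to 12.2 in conditioned medium, without overlap. The exact permutation p was 0.13, the smallest that this form of the test can give (adjusted 0.33).

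The decoy ratio Il1r2 to Il1r1 was 78.3 and 41.5 in the controls, and 159, 248, 222 and 77.9 in VpR83, VpR99, VpR126 and VpR2020 (exact permutation p = 0.27, adjusted 0.33). VpR2020 lay between the controls, and the decoy was the more abundant of the pair in all 6 libraries. The ratio of Il18bp to Il18 was 0.748 and 0.761 in the controls and 0.262 to 1.06 in conditioned medium (exact permutation p = 0.53, adjusted 0.53). Changing the length measure rescales each ratio by a constant and left the order of the libraries as it was.

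**Figure D4:**
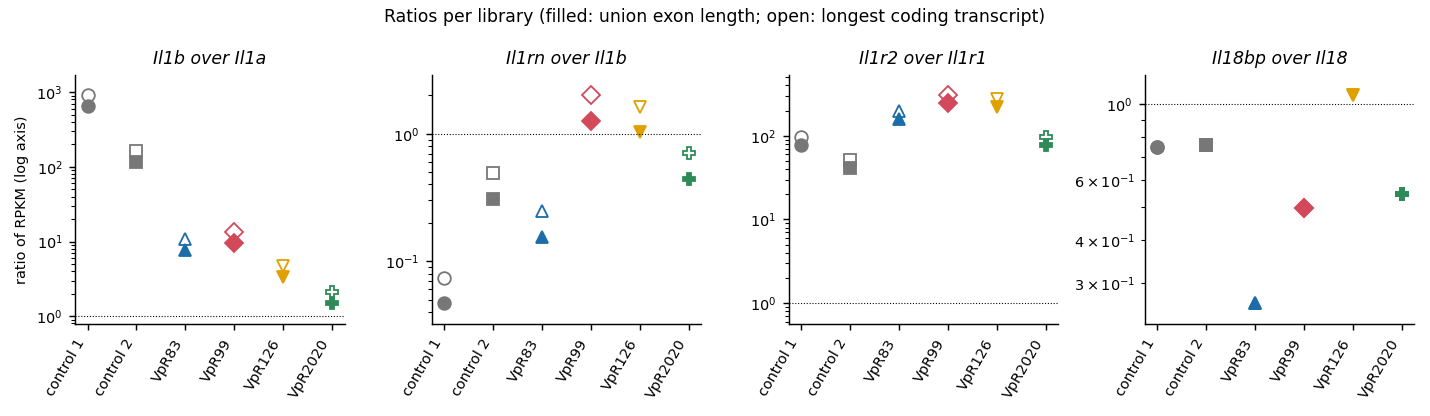
RPKM ratios of 4 gene pairs in each library (log axis), with filled symbols for the union of exons and open symbols for the longest coding transcript. Il1b to Il1a is 644 and 115 in the controls and 1.49 to 9.65 in the conditioned libraries (filled symbols).

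The rest of the pathway was described with 7 lists of 77 genes in all, 68 of them tested, of which 25 rose, 11 fell and 32 were not called, where 22.5% of all genes tested rose and 19.7% fell. The list with the most rises was that of the other inflammasome sensors, adaptors and regulators. Rises numbered 11 and falls 1 among the 14 tested (median log2 change 1.08), and without control replicate 1 or 2 the rises numbered 4 and 4. P2rx7, the ATP-gated channel that triggers NLRP3, went from 13.4 and 12 CPM in the controls to 60.5 to 313 CPM in conditioned medium (3.88 ± 0.73, edgeR adjusted p = 0.0078). Naip1, of the NAIP sensors of bacterial proteins, had 7 and 4 counts in the controls and rose by 5.12 ± 0.99, but reads of the similar Naip and Nlrp1 copies may have been split by the counting. Pycard, the adaptor ASC that joins sensor to caspase-1, rose by 0.88 ± 0.19. Nlrp12, a related receptor of neutrophils and other myeloid cells, fell from 26.7 ± 11.1 (SD, n = 2) to 4.97 ± 2.47 CPM (n = 4), a log2 change of -2.41 ± 0.45. Txnip, an NLRP3-binding regulator and the most abundant of the list, was not called (308 ± 4.53 and 477 ± 140 CPM, adjusted p = 0.12).

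Of 11 genes of processing and pyroptosis, the lytic cell death that releases IL-1β, 3 rose (Ninj1, Capn2 and Casp8), 2 fell (Gsdme and Capn1) and 6 were not called (median 0.16). These counts are near the shares of all genes tested (22.5% higher and 19.7% lower). Ninj1, whose product ruptures the plasma membrane of dying cells, stood at 53.9 and 44.2 CPM in the controls and 222 (VpR83), 160 (VpR99), 607 (VpR126) and 317 CPM (VpR2020) in conditioned medium (2.73 ± 0.59, edgeR adjusted p = 0.013). The calpain genes, of proteases that can cut the IL-1α precursor, went opposite ways, with Capn2 at 1.49 ± 0.38 and Capn1 at -0.89 ± 0.15. Gsdme, a gasdermin gene, fell from 58.3 ± 3.14 to 21.8 ± 8.47 CPM. Elane, the neutrophil elastase gene and the most abundant of the list by mean CPM over the 6 libraries, was not called (edgeR adjusted p = 0.088). It had 956 and 880 CPM in the controls, 587 CPM in VpR99 and 76.4 to 109 in the others. Prtn3 was above it in every conditioned library (164 to 658 CPM). Without VpR99 Elane was called, at -3.28 (adjusted p = 0.00066, range over alternatives 0.00066 to 0.26), and 5 genes of the list were called lower in place of 2. Without control replicate 1 or 2, 1 gene was called higher and 0 lower.

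Of 5 tested receptors for other IL-1 family cytokines, 4 fell (Il1rl1, Il18r1, Il18rap and Sigirr) and Il1rl2 was not called (median -1.93). Of all genes tested 19.7% fell and 22.5% rose. In this list edgeR called 0 higher, while Il1rl2 was higher at an unadjusted p below 0.05 (1 gene) and was called higher by DESeq2. Il1rl1, the IL-33 receptor ST2, stood at 23.9 and 22.9 CPM in the controls and 2.23, 2.28, 2.49 and 1.33 CPM in VpR83, VpR99, VpR126 and VpR2020 (-3.48 ± 0.27, edgeR adjusted p = 0.00065). It was called in all 14 alternatives. Il18r1 and Il18rap, the chains of the IL-18 receptor, changed by -2.93 ± 0.46 (adjusted p = 0.0042) and -1.93 ± 0.45 (adjusted p = 0.017), and Il18r1 was also called in all 14. Il18rap lost its call without control replicate 1 (adjusted p = 0.075) and without replicate 2 (adjusted p = 0.0955, the highest over its alternatives), and the list's falls numbered 3 and 2 in those fits. ST2 is known from mast cells and basophils and the IL-18 receptor from T and NK cells. The summed mast cell and basophil markers were 603 to 623 CPM in the controls and 10.2 to 80.7 in conditioned medium. The T and NK sums were 61.4 to 69.6 and 2.01 to 4.65 CPM, with Gzma at 0 in every conditioned library. Il18rap stood at 108 and 121 CPM in the controls and at 17.8 (VpR2020) to 55.8 CPM (VpR99) in conditioned medium. The part of these or other cells in the receptor values was not tested.

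Of 6 other ligands 2 were counted well enough to test. Il33, an alarmin gene, had 24 and 9 counts in the controls. In conditioned medium it had 1 (VpR83), 22 (VpR99), 2 (VpR126) and 0 counts (VpR2020). Its log2 change was -2.60 ± 0.77 (edgeR adjusted p = 0.035), and its size rests on these low counts. The change ran from -3.69 to -2.13 with 1 library left out, and the call was lost without either control, VpR83 or VpR126. Il1f9, which encodes IL-36γ, was not called (adjusted p = 0.52) and had 71.4 CPM in VpR99 against 15.6 to 24.8 in the other media. Without VpR99 it was called lower (-1.35, adjusted p = 0.032, range over alternatives 0.032 to 0.99).

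**Figure D5:**
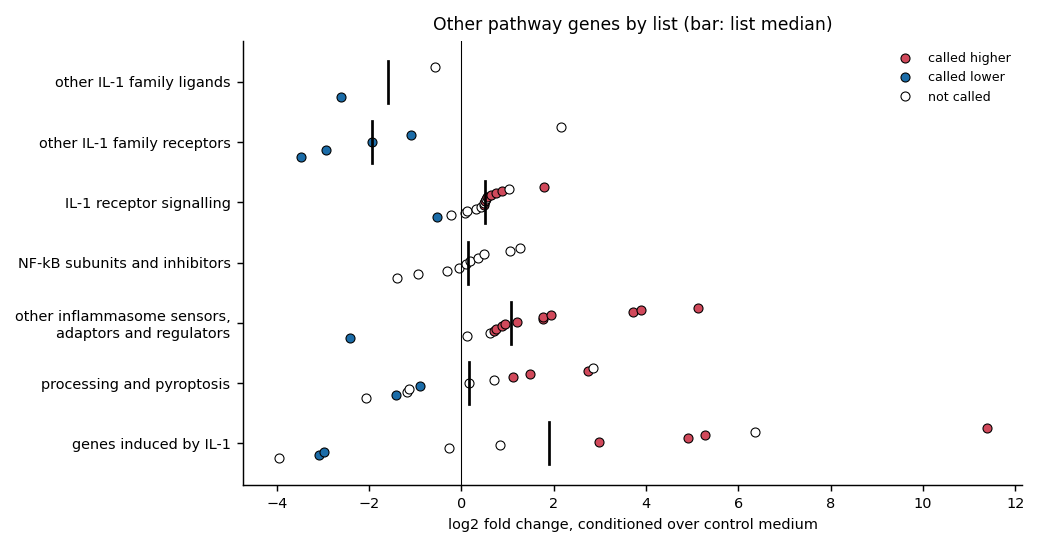
Fitted log2 fold change of each tested gene of the 7 pathway lists, red where called higher, blue where called lower and white where not called, with list medians as bars. Of the 14 other inflammasome genes 11 are red, and of the 10 NF-kB genes all are white.

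Of 16 genes of signalling downstream of the receptor, 7 rose, 1 fell and 8 were not called (median 0.50). Of all genes tested 22.5% rose and 19.7% fell. Peli2, a ubiquitin ligase gene of the pathway, rose by 1.80 ± 0.34 (edgeR adjusted p = 0.0084) and Irak4, the kinase that opens the cascade, by 0.87 ± 0.19 (adjusted p = 0.013), while Tab1, of the TAK1 kinase complex, fell by 0.52 and Tab2, its partner and the most abundant of the list, rose by 0.51 ± 0.16 (adjusted p = 0.039 for either). Tab1 lost its call in 5 of 14 alternatives (adjusted p up to 0.26) and Tab2 in 6 (up to 0.23). The list had 0 falls without either control, without VpR83 or VpR2020 and with no filter on low counts. Without control replicate 1 or 2, 0 and 1 genes of the list were called higher, without VpR83 4, and under upper-quartile scaling or library totals 4. Of 10 genes of NF-kB subunits and inhibitors, edgeR called 0 in either direction and 0 had an unadjusted p below 0.05. DESeq2 also called 0, with 1 lower at an unadjusted p below 0.05, and limma voom called 0, with 0 at an unadjusted p below 0.05. Nfkb1, the most abundant, had 153 ± 3.78 CPM in control medium and 175 ± 50.6 in conditioned medium, with 250 CPM in VpR126. Without VpR126, 1 gene of this list was called higher and 1 lower.

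Of genes that IL-1 is known to induce, 10 of 12 were tested, 4 rose (Saa3, Ccl2, Cxcl1 and Icam1), 2 fell (Lcn2 and Ptgs2) and 4 were not called. Of all genes tested 22.5% rose and 19.7% fell, and the falls in this list are near the latter share. Without control replicate 1 the list had 2 rises and 0 falls, without control replicate 2 it had 0 rises and 1 fall, and with no filter on low counts 1 and 1. The falls were 1 without VpR83 and 1 without VpR2020. These genes also answer to other inflammatory signals. Saa3, an acute-phase gene, had 1 and 7 counts in the controls and from 34.6 CPM (VpR2020) to 1275 CPM (VpR126) in conditioned medium, and Ccl2, a monocyte-attracting chemokine gene, 18.8 and 1.32 CPM against 156 to 946 CPM. Saa3 (edgeR adjusted p = 0.013) lost its call without either control, with no filter and by limma voom, 4 of 14 alternatives (adjusted p up to 0.13). The log2 change of Ccl2 was 5.27 ± 1.46 (edgeR adjusted p = 0.028), and 4.40 without control replicate 2, where the call was lost (adjusted p = 0.097, range over alternatives 6.3e-07 to 0.13). It was also lost with no filter on low counts (adjusted p = 0.13), and the log2 change was 8.21 without control replicate 1. Lcn2, a neutrophil granule gene, fell from 4054 ± 287 to 479 ± 384 CPM. Ptgs2, the cyclooxygenase 2 gene, changed by -2.98 ± 0.83 (adjusted p = 0.029) and by -0.69 without control replicate 1 (adjusted p = 0.51, range over alternatives 0.00071 to 0.51).

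The controls differed in this list as they did in Il1b. In 7 of its 10 tested genes control replicate 1 was over 2-fold above replicate 2 (4.14% of all genes tested), and in 1 over 2-fold below (2.15%). Ptgs2 had 110 and 12.5 CPM, Il6 16.8 and 1.36, Cxcl2 59.0 and 5.17 and Zc3h12a 41.9 and 18.4, and Cxcl1 and Nos2 rested on 3 counts or fewer. Among the NF-kB genes the same held for the feedback inhibitors Tnfaip3 (200 and 28.3 CPM) and Nfkbiz (148 and 28.9 CPM). None of the tested genes of the other 5 lists differed by this much between the controls. Whether a difference in handling accompanied these values was not tested.

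By distance of centred log2 CPM over the 6 libraries, the genes with the profiles most like Il1b were Dusp1, P2ry10 and Csrnp1 (distances 0.757, 0.806 and 0.881 log2 units). Dusp1, a phosphatase gene, went from 448 and 112 CPM in the controls to 28.8 to 60.4 in conditioned medium. Nearest to Il1rn were Ifi214, Ms4a4c and H2-T24 (0.681, 0.681 and 1.01). Ms4a4c, a membrane protein gene, stood at 44.0 and 52.8 CPM in the controls, 84.3 and 93.1 in VpR99 and VpR126, and 9.96 and 17.0 in VpR83 and VpR2020, the same split as Il1rn. Nearest to Il1a were 4933430I17Rik, Cd38 and Hfe (0.497, 0.544 and 0.566), of which Cd38, an ectoenzyme gene, went from 29.4 and 37.0 CPM in the controls to 206 to 490 in conditioned medium. With 6 libraries many genes share a profile, and these distances are a description.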

How the data were processed

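RNA was sequenced from mouse bone marrow libraries, 2 in control medium and 4 in conditioned medium, with a stranded Illumina TruSeq kit, as the labels' protocols say. The submitters' processing notes list Trimmomatic 0.38, STAR 2.5.2b and GRCm38, while the read counter, strand setting and annotation release are unknown here. Per the file headers, the authors deposited unnormalized counts for each Ensembl gene, and the 6 columns match the samples by line or replicate, with unexplained tags on 3 of them. Symbols, coordinates and exon lengths came from GENCODE M21 (GRCm38), which matched 45143 of 45706 identifiers. Promoter sequences came from RefSeq (GRCm38.p6), with 14 entries for the 10 genes.

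The counts were analysed with edgeR 4.0.16 in R 4.3.3: filterByExpr defaults, TMM scaling, robust quasi-likelihood test of group, two-sided, Benjamini-Hochberg adjustment over 15141 genes, called below 0.05. The script was tested on simulated data. SE is the absolute log2 fold change over the square root of F. Values are mean ± SD for CPM and log2 change ± SE. A count of 0 allows 3 counts, from 0.0243 CPM (VpR99) to 0.166 CPM (VpR2020). Alternatives were other scalings, no filter, DESeq2 1.42.0, limma 3.58.1 voom, no robust option, VpR99 thinned to the others' median total, and each library left out. The most abundant gene of a list was that of the highest mean CPM over the 6 libraries, not scaled by length. Genes named from the lists were the 2 largest called rises and falls of each and its most abundant gene. Others (Sigirr, Il1rl2, Pycard, Casp8, Cxcl1, Icam1, Il6, Cxcl2, Zc3h12a, Nos2, Tnfaip3, Nfkbiz) were named after their values were seen. The genes and lists were chosen with earlier results of these data known.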

Additional observations from a re-analysis of the deposited data

Results flagged for a closer look

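In 4 of 33 genes examined, 1 conditioned library lay far from the other 3 (gap to the nearest over the whole range above Dixon's 95% critical value for 4 samples). Chance flags about 1 in 20 such groups, and 7.07% of all genes tested were flagged. VpR99 stood apart for Il1r2 (108 CPM, ratio 0.991), Il1f9 (71.4 CPM, ratio 0.835) and Elane (587 CPM, ratio 0.937), each time as the highest. VpR126 was the highest for Nfkb1 (250 CPM, ratio 0.851).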

How the results depend on the processing

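No paired analysis was possible because the labels give replicate numbers to the controls only. Over 14 alternatives, the count of all genes called was between 2201 and 7031 with 1 library left out, and 7403 with DESeq2, against 6393. Control replicate 1 left out gave 2201, and replicate 2 left out 2290 (1283 and 1299 higher, 918 and 991 lower). Leaving out 1 library gave 0 to 4 higher and 0 to 3 lower calls among the 10 genes, and 9 to 40 calls among the pathway lists (36 with all libraries, 11 without control replicate 1 and 9 without replicate 2). Under upper-quartile scaling 1 of the 10 genes was called higher, as was 1 with library totals only, and 1 called lower with no filter on low counts. Those scalings moved the share of calls that were higher from 53.3% to 40.0% and 38.6%. Signs turned for Il1rn by limma voom (-0.081), Il1r2 without control replicate 1 (0.030, and -1.48 without replicate 2), Il1rap under upper-quartile scaling, library totals and without VpR99 (-0.18, -0.20 and -0.32), Il1f9 without control replicate 2 (0.013, and -0.995 without replicate 1) and Nfkb1 under upper-quartile scaling, library totals and without VpR126 (-0.011, -0.052 and -0.016). None of these was called in either setting. The cause of these shifts was not tested. Without a control fewer samples enter the fit. Depth limits low genes most, such as Il1r1 at 13, 8 and 17 counts in VpR83, VpR126 and VpR2020.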
